A study of Mus musculus with 16 samples.

Results

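The proximal colon of mice lacking the endothelin receptor type B (Ednrb), a model of Hirschsprung disease (HSCR), was compared with the proximal colon of wild-type littermates. The comparison took every library labelled proximal, 4 from HSCR mice and 4 from WT mice, of 16 libraries in the series, and 16664 of 56748 genes in the deposited table passed the filter on low counts. HSCR mice were homozygous for the Ednrb tm1Ywa allele and WT littermates were Ednrb+/+, all on a hybrid C57BL6/J-129Sv background, of both sexes and between 2 and 4 weeks old, and the labels name no other allele or agent. The tissue was the longitudinal muscle with the myenteric plexus (LMMP), dissected under a microscope, and in HSCR mice the proximal segment was the distended ganglionic colon that lies above the aganglionic distal colon. The germline allele removes the receptor from every cell type, so the segment differs from WT both in genotype and in lying upstream of an obstruction, and these cannot be told apart here. The tissue came from 4 mice in each group, but no label ties a library to an animal, and the tests measure the spread between libraries.

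Ednrb is a G protein-coupled receptor that neural crest cells need to colonise the hindgut, and its loss leaves the end of the colon without ganglia. The ganglia of the myenteric plexus hold neurons and enteric glia, which set the motor pattern of the surrounding smooth muscle. Hox genes give position along the gut, and the nested expression of their numbered groups differs between its segments.

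Raw read counts per gene totalled 21384372 to 39842132 in the WT and 25158132 to 45831881 in the HSCR libraries, of which mitochondrial genes took 7.31 to 49.8% and 5.56 to 20.1%. Levels are given as CPM, the counts divided by library size and scaled by the trimmed mean of M values (TMM), and a difference is the log2 fold change of HSCR over WT from edgeR's quasi-likelihood test. HSCR proximal library 1 went against its label: on a scaling over 16 libraries Hoxd13, a gene of the hindgut end, stood at 125 CPM there, against 0.643 to 2.49 in the other HSCR proximal, 0.904 to 23.9 in the WT proximal and 112 to 201 in the WT distal libraries, whereas HSCR distal library 1 had 0.629 CPM. The same proximal library held 1130 CPM of Acta1, the actin of skeletal muscle. HSCR library 2 had a mean log2 CPM of 6.78 over 20 smooth muscle genes, against 9.38 to 10.8 in the other proximal libraries, and of 8.63 over 24 epithelial genes, against -2.32 to 5.89 in the WT libraries. The epithelial genes, which belong to a layer that the dissection removes, were thus present in some libraries of both groups. Values without HSCR library 1 or 2 are given below where they matter.

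Ednrb stood at 62.6, 31.7, 61.6 and 50.7 CPM in WT libraries 1 to 4 and at 7.27, 11.4, 33.8 and 33.8 CPM in HSCR libraries 1 to 4. The groups overlapped, since WT library 2 lay below HSCR libraries 3 and 4, and the log2 fold change of -1.26 ± 0.52 (SE) had an edgeR adjusted p of 0.747. Without HSCR library 1 it was -0.96. The counts sum reads over the whole gene, including any exon that the targeted allele keeps.

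No gene passed both limits of the test, a log2 fold change beyond 1 in either direction and a Benjamini-Hochberg adjusted p under 0.05 (edgeR), and the smallest adjusted p was 0.101. At an unadjusted p under 0.05, 689 genes were lower in HSCR (4.13% of those tested) and 414 were higher (2.48%), and the DESeq2 test put 165 lower and 74 higher genes past both limits. The groups did not overlap in 809 genes (4.85% of those tested), the highest HSCR library lying under the lowest WT library in 503 (3.02%) and the lowest HSCR library over the highest WT library in 306 (1.84%). The lower genes differed more, with a median log2 fold change of -1.42 against 0.89 in the higher genes, and 330 of the lower but 133 of the higher went beyond 1. The balance of the 2 directions depended on scaling. On CPM by total counts, where WT library 1 had 49.8% mitochondrial reads, 152 genes were lower and 513 higher without overlap, and the median of all genes moved from 0.04 to 0.32 on the log2 scale. On CPM by nuclear counts 585 were lower and 188 higher. In all of 5 scalings, 146 genes were lower and 124 higher without overlap. Of 68 such genes named here, 43 kept their separation in all 5 scalings, 17 in 4, Snap25, Cnp, P4hb, Hadha, B4galt1 and Ccdc189 in 3, Ppid in 2 and Bag5 in 1. HSCR library 2 was the farthest from WT in 51.3% of the lower and 59.5% of the higher genes. The genes described next were taken from these non-overlapping sets by a fixed rule or from gene lists by function and cell type. The shares of all tested genes without overlap, 3.02% lower and 1.84% higher, are the background for each list count below. As the tissue was bulk, fewer cells of a type and less RNA per cell cannot be told apart.

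Of the non-overlapping protein-coding genes, the 15 lower ones with the smallest p had WT means 3.02 to 34.8 times the HSCR means. Their edgeR adjusted p ran from 0.101 to 0.525. All 15 stayed without overlap in each of the 5 scalings and had DESeq2 adjusted p under 0.05. Both rest on the counts by which the genes were chosen, so they are not separate support. All 15 also had a log2 fold change under 0 in the distal colon. Cacng4 (ENSMUSG00000020723, chr11:107623183-107685383, mm39), an auxiliary subunit of AMPA-type glutamate receptors, stood at 26.7, 42.2, 21.2 and 24.3 CPM in the WT and at 3.45, 3.60, 5.07 and 3.27 CPM in the HSCR libraries. Its log2 fold change was -2.89 ± 0.34 (SE), and the lowest WT library (21.2 CPM) lay well above the highest HSCR library (5.07 CPM). Leaving out each library in turn kept it between -3.04 and -2.64. Myrip (chr9:120130579-120303907), which links secretory granules to myosin, stood at 62.7, 52.6, 28.9 and 31.1 CPM in WT and at 2.45, 6.51, 6.73 and 4.42 CPM in HSCR. The log2 fold change of Myrip was -3.12 ± 0.43 (SE), with an edgeR adjusted p of 0.204.

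**Figure D1:**
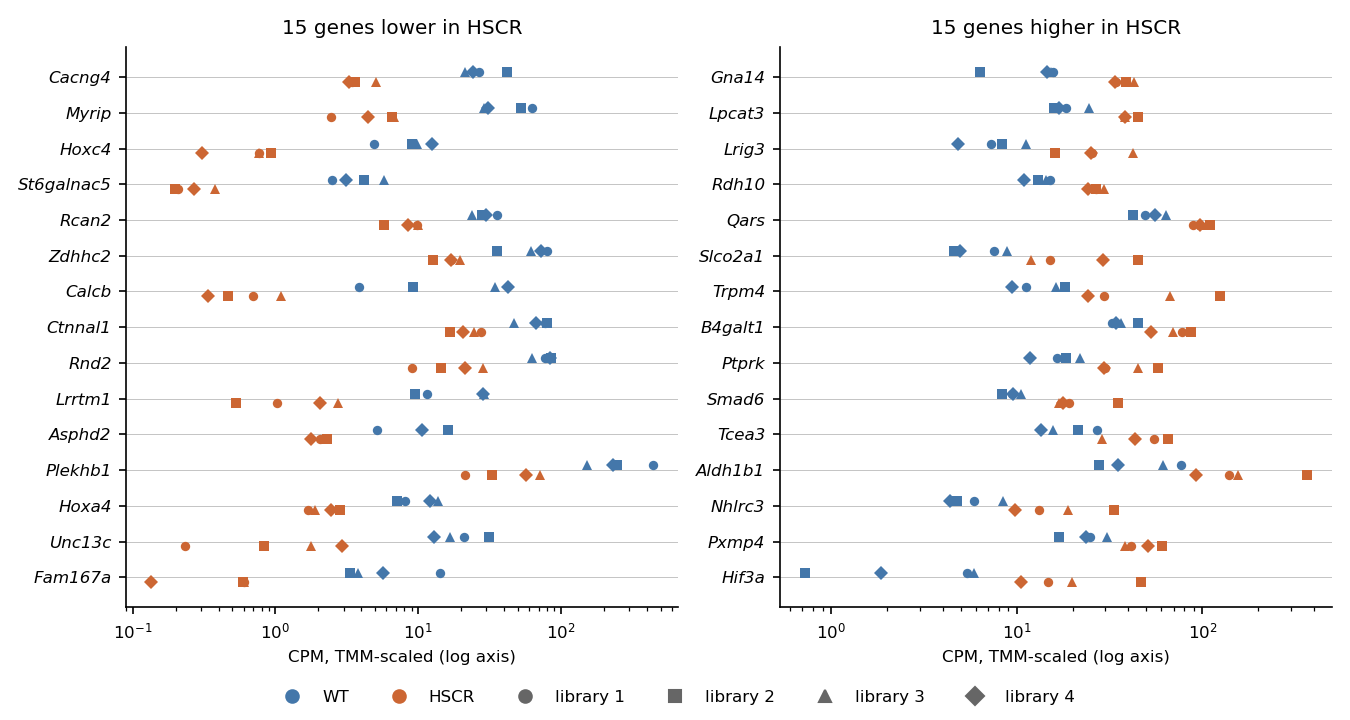
Level of the 15 lower and 15 higher genes in each proximal library, in CPM on a log axis; the color gives the group and the marker the library number. By the choice of genes, the 4 HSCR points lie on one side of the 4 WT points in each gene, as for Cacng4 at 3.27 to 5.07 against 21.2 to 42.2 CPM.

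Several of the 15 belong to the synapse and its vesicles. Unc13c, a Munc13 protein that primes synaptic vesicles, had 12.9 to 31.4 CPM in WT and 0.232, 0.827, 1.78 and 2.93 CPM in HSCR, a log2 fold change of -3.83 ± 0.74 (SE). Lrrtm1, a postsynaptic adhesion protein that binds neurexins, ranged from 9.51 to 29.1 CPM in WT and from 0.529 to 2.72 in HSCR, a log2 fold change of -3.63 ± 0.65 (SE). The gene lies within Ctnna2, and reads of overlapping genes cannot be told apart, since the sources used here do not give the strand setting of the counting. Zdhhc2, an enzyme that attaches palmitate to synaptic proteins, held 79.4, 35.5, 61.4 and 73.1 CPM in WT and 17.0, 12.8, 19.7 and 17.0 CPM in HSCR. Zdhhc2 averaged 16.6 ± 2.88 CPM in HSCR and 62.4 ± 19.4 in WT (SD, n = 4). Rcan2, an inhibitor of the calcium-dependent phosphatase calcineurin, averaged 29.4 ± 4.90 CPM in WT and 8.50 ± 1.95 in HSCR (SD, n = 4), and Rnd2, a small GTPase of neuronal migration, averaged 77.3 ± 10.3 and 18.3 ± 8.42. Plekhb1, a pleckstrin homology domain protein, reached 443 CPM in WT library 1 and no more than 71.1 CPM in any HSCR library. St6galnac5, a sialyltransferase that builds gangliosides, stood at 2.51 to 5.76 CPM in WT and at 0.198 to 0.377 in HSCR, and its distal log2 fold change was -0.00. Zdhhc2, Rnd2 and St6galnac5 overlap Cnot7, Vat1 and Pigk, genes with more reads, on the other strand.

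Most genes of the neuronal lists had lower levels in HSCR, although most of them overlapped between groups. All 26 genes of the synaptic release machinery had a log2 fold change under 0, where 46.8% of all tested genes did, 12 of them had an unadjusted p under 0.05 and their median was -1.65, against 0.04 over all genes. Only 4 of the 26 did not overlap, Rims2, Cplx2 and Snap25 among them. Snap25, a SNARE protein of vesicle fusion, stood at 63.4, 93.0, 236 and 212 CPM in WT and at 1.02, 8.13, 63.0 and 46.1 CPM in HSCR. HSCR libraries 1 and 2 were the low ones, and library 3 came close to WT library 1. Of 22 enteric neuron genes 21 had a log2 fold change under 0 (median -1.80) and 2 did not overlap. The mean log2 CPM over the neuron list was 4.01, 4.37, 6.40 and 6.11 in WT and 1.41, 1.52, 4.82 and 4.54 in HSCR libraries 1 to 4. HSCR libraries 3 and 4 thus lay above WT libraries 1 and 2, and the mean over the release genes overlapped too. Replicates 1 and 2 have library names of the WPO and KPO pattern and are called a series here. Replicates 3 and 4, pooled as the other series, have names outside that pattern. These begin with CM, except that of HSCR library 3, which begins with LC, and no label names a batch. Neuron levels differed between the series in each genotype. Inside either series the genotypes were separate, HSCR being lower. The neuron mean differed by -2.725 in replicates 1 and 2 and by -1.58 in replicates 3 and 4. The release mean differed by -2.205 and -1.552. What set the series apart was not tested. Gap43, a growth cone protein of neurons, stood at 96.6, 62.7, 150 and 142 CPM in WT and at 9.75, 11.8, 57.7 and 52.5 CPM in HSCR, with library 3 of HSCR just under library 2 of WT. Without HSCR library 1 the neuron median was -1.45 and that of the release genes -1.41, and without HSCR library 2 they were -1.56 and -1.35. Of 23 auxiliary channel and calcium signalling genes, 22 had a log2 fold change under 0 (median -1.21), with Cacng4, Hpca and Calb2 without overlap. Hpca lies across Tmem54, a gene with more reads, on the other strand. Calb2, the calcium buffer calretinin, stood at 105, 217, 325 and 344 CPM in WT and at 0.347, 20.6, 39.9 and 63.8 in HSCR.

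Neuropeptides did not go one way. Of 16 tested, 11 had a log2 fold change under 0 and 3 did not overlap, all lower: Calcb, Sst and Tac1. Calcb, which encodes the beta form of calcitonin gene-related peptide, stood at 3.83, 9.27, 34.8 and 42.3 CPM in WT and at 0.695, 0.463, 1.10 and 0.337 in HSCR, the WT mean being 34.8 times the HSCR mean. Sst, somatostatin, had 143, 258, 651 and 703 CPM in WT and 0.232, 38.6, 19.6 and 10.3 in HSCR. Another 2 peptides, chosen after their values were seen, differed between the HSCR libraries. Vip, the inhibitory motor neuron peptide, had 13.8, 84.3, 208 and 351 CPM in WT and 6.14, 17.1, 1497 and 820 in HSCR. Cartpt, a peptide of a subset of enteric neurons, had 6.75, 19.7, 32.6 and 58.9 CPM in WT and 4.26, 5.32, 218 and 228 in HSCR. For both peptides HSCR libraries 3 and 4 lay above every WT library and HSCR library 1 below every WT library, so the groups overlapped.

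Glial genes were lower along with neuronal genes. Of 16 enteric glia genes, 13 had a log2 fold change under 0, 6 had an unadjusted p under 0.05 and 3 did not overlap, S100b, Sox10 and Cnp, with a list median of -0.84 that was -1.32 without HSCR library 3. Among all tested genes 46.8% were under 0 and 3.02% were lower without overlap. The mean log2 CPM over the list was 4.36 to 4.88 in WT and 2.56 to 4.10 in HSCR, without overlap. Sox10, the transcription factor of glia and their precursors, stood at 141, 78.4, 69.0 and 77.2 CPM in WT and at 16.4, 9.82, 46.0 and 30.4 in HSCR. S100b, a calcium-binding protein of glia, stood at 102, 78.1, 31.9 and 48.0 CPM in WT and at 2.29, 5.72, 20.3 and 9.47 in HSCR. S100b overlaps Dip2a and Cnp overlaps Dnajc7, so their reads may be shared. A list of 30 astroglial-type genes was put together after the values had been seen, so its share is a description only: 26 had a log2 fold change under 0 and 19 did not overlap, with a median of -1.55. It holds Zeb2, a transcription factor of neural crest development, at 133, 137, 63.6 and 69.9 CPM in WT and 35.2, 37.9, 30.4 and 21.4 in HSCR, and Entpd2, which breaks down extracellular ATP, at 31.4, 30.8, 57.3 and 45.2 against 7.48, 12.8, 18.7 and 11.9 CPM. Entpd2 overlaps Npdc1, a gene with more reads, on the same strand. Apoe, which encodes the lipid carrier apolipoprotein E, stood at 1023, 526, 1152 and 1354 CPM in WT and 124, 345, 471 and 494 in HSCR. Notch targets Hey1 and Hey2 had log2 fold changes of -1.37 and -2.37 and did not overlap. Without HSCR library 1 the astroglial-type median was -1.43. The number without overlap was then 20 of 30, where 4.37% of all tested genes were lower so. Leaving out a library cannot make such a count smaller.

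SOX factors bind DNA at a short core, and the 250 bases before the start of each gene were searched for AACAAAG on both strands, which 4.15% of 14472 protein-coding genes held. Among the 16 glia genes 3 held it, Cnp, Gfra3 and Ptprz1, and among the 30 astroglial-type genes 1 did. The window of Cnp, a myelin-associated enzyme, is shown because Cnp was the only glia gene without overlap that held the core, GRCm39 chr11:100465480-100465729, plus strand, ending at the GENCODE start, with the match in capitals:
Cnp: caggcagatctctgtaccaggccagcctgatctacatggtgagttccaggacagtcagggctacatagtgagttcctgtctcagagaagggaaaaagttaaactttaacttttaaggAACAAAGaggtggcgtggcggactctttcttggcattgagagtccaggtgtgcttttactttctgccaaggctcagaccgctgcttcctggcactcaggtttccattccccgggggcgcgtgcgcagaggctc
The core began 133 bases before the start. A match of these letters is a description of the window, and Cnp stood at 75.0, 84.7, 60.8 and 45.7 CPM in WT and at 33.0, 38.3, 43.7 and 31.7 in HSCR, a log2 fold change of -0.86 against -1.83 for Sox10 and -2.78 for S100b.

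Hox genes of the anterior groups lay lower in HSCR. The 3 Hox lists were drawn up after the values had been seen. Of 13 tested genes of groups 1 to 5, 11 had a log2 fold change under 0 and 5 did not overlap, Hoxc4, Hoxa4, Hoxb5, Hoxa5 and Hoxa3, and the median was -1.20, or -1.81 without HSCR library 2 and -1.83 without HSCR library 4. Among all tested genes 3.02% were lower without overlap. Hoxc4 (chr15:102927366-102945278) stood at 4.94, 8.99, 9.88 and 12.4 CPM in WT and at 0.764, 0.926, 0.770 and 0.303 in HSCR. Its log2 fold change was -3.70 ± 0.55 (SE) with an edgeR adjusted p of 0.288. Every HSCR library lay under 1 CPM and every WT library above it. Hoxa5 stood at 52.7, 135, 206 and 184 CPM in WT and at 2.15, 7.90, 30.4 and 14.4 in HSCR, and Hoxb5, which enteric neural crest cells express, at 42.5, 68.3, 128 and 127 CPM against 2.73 to 21.3 CPM. Hoxa5 and Hoxa4 overlap Hoxa3 on the same strand, and Hoxb5 overlaps an antisense gene. Groups 6 to 9 had a median of 0.06 over 12 genes. All 9 genes of groups 10 to 13 had a log2 fold change over 0 with a median of 1.07, which was 0.21 without HSCR library 1, the library with 116 CPM of Hoxd13. Only Hoxc10 did not overlap, at 2.92, 1.62, 2.32 and 2.03 CPM in WT and 3.84, 3.50, 6.93 and 6.24 in HSCR. Without HSCR library 1 the median of groups 1 to 5 was -1.04, and the difference of its mean log2 CPM was -1.64 in replicates 1 and 2 and -1.63 in replicates 3 and 4.

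**Figure D2:**
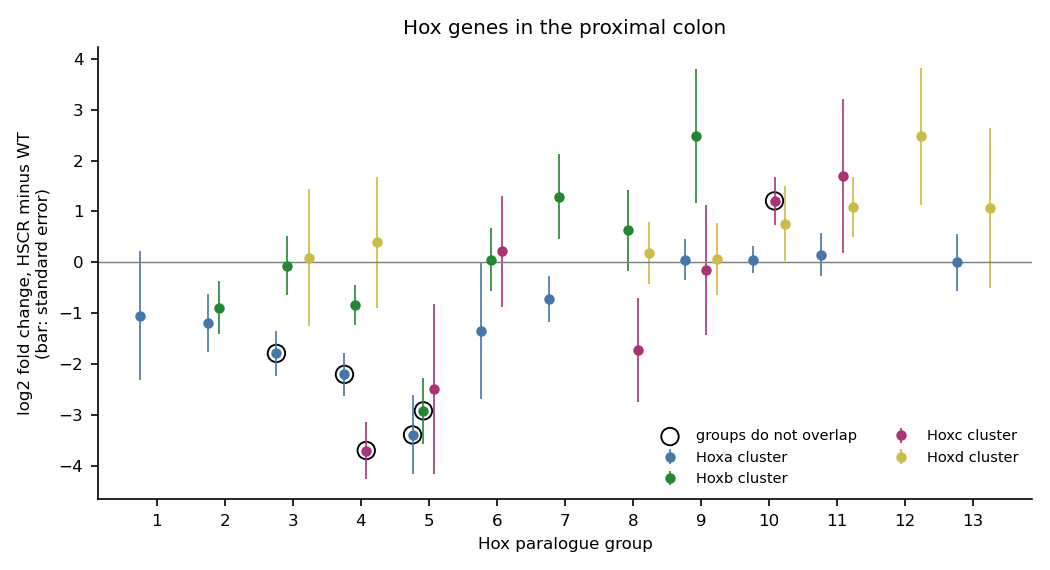
Log2 fold change, HSCR over WT, of Hox genes (vertical axis) by Hox paralogue group (horizontal axis), with standard error bars, colored by cluster and ringed where the groups do not overlap. Hoxc4 at -3.70 and Hoxa5 at -3.40 lie lowest among groups 1 to 5, and all 9 genes of groups 10 to 13 lie over 0.

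Genes of motile cilia were also lower, in a list drawn up after the values had been seen. Of 62 listed genes 39 passed the filter, of which 36 had a log2 fold change under 0, with a median of -1.0. Without overlap 9 were lower, as were 3.02% of all tested genes, and 1, Ccdc189, was higher. The genes left out had few reads, with more in HSCR for some (Ccno, Dnaaf1) and fewer for others (Rsph4a, Ccdc113). The mean log2 CPM over the list overlapped, with WT library 2 at -0.38 and HSCR library 3 at 0.10. Foxj1 (chr11:116221530-116226225), the transcription factor that switches on motile cilia, stood at 16.5, 2.17, 4.67 and 9.42 CPM in WT and at 0.463, 0.860, 1.22 and 1.28 in HSCR, a log2 fold change of -3.09 ± 0.72 (SE). Dnai2, a dynein intermediate chain, stood at 9.53, 8.09, 3.01 and 5.83 CPM in WT and at 1.34, 0.793, 1.40 and 0.944 in HSCR, and Wdr66, a cilium-associated protein, at 2.19 to 5.01 against 0.370 to 0.607 CPM. Tppp3, a tubulin-binding protein, averaged 784 ± 319 CPM in WT and 216 ± 94.4 in HSCR (SD, n = 4). HSCR libraries of Foxj1 were close together, while WT library 1 was the high one. The X-box, the binding motif of RFX factors on cilium genes, was found in 1.58% of the windows and in 2 of the 39 cilia genes, Foxj1 and Tekt4. It was not particular to the cilia list, lying also in 3 of 32 listed chaperones, 2 of 37 oxidation genes and 2 of 40 glycan genes. Foxj1's window is shown as the regulator of the list, GRCm39 chr11:116226226-116226475, minus strand, with the match in capitals:
Foxj1: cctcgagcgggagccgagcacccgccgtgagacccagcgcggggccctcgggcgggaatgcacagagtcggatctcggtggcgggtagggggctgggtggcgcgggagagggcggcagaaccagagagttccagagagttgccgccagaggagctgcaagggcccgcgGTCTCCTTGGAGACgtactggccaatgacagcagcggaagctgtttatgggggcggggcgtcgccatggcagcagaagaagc
The match began 82 bases before the start, and the window also overlaps exons of a long noncoding RNA on the opposite strand. Of the other motifs (7 in all, on both strands), the heat shock element lay in 2 of 32 listed chaperones (0.359% of all windows). These were Hspd1 and Hspe1, which encode mitochondrial chaperonins, and whether their windows share 1 site was not examined. The element's shorter part TTCNNGAA, which every match of the full element holds, lay in 3 of 32 (6.38%), Hsph1 besides these 2. The interferon-stimulated response element lay in 1 of 26 antigen presentation genes (3.10%) and in 8 of 17 interferon response genes. The endoplasmic reticulum stress element lay in 1 of 40 glycan genes (0.104%) and in 5 of 20 unfolded protein response and heat shock genes. The DR1 site of nuclear receptors lay in 0 of 37 oxidation genes (0.0691%).

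**Figure D3:**
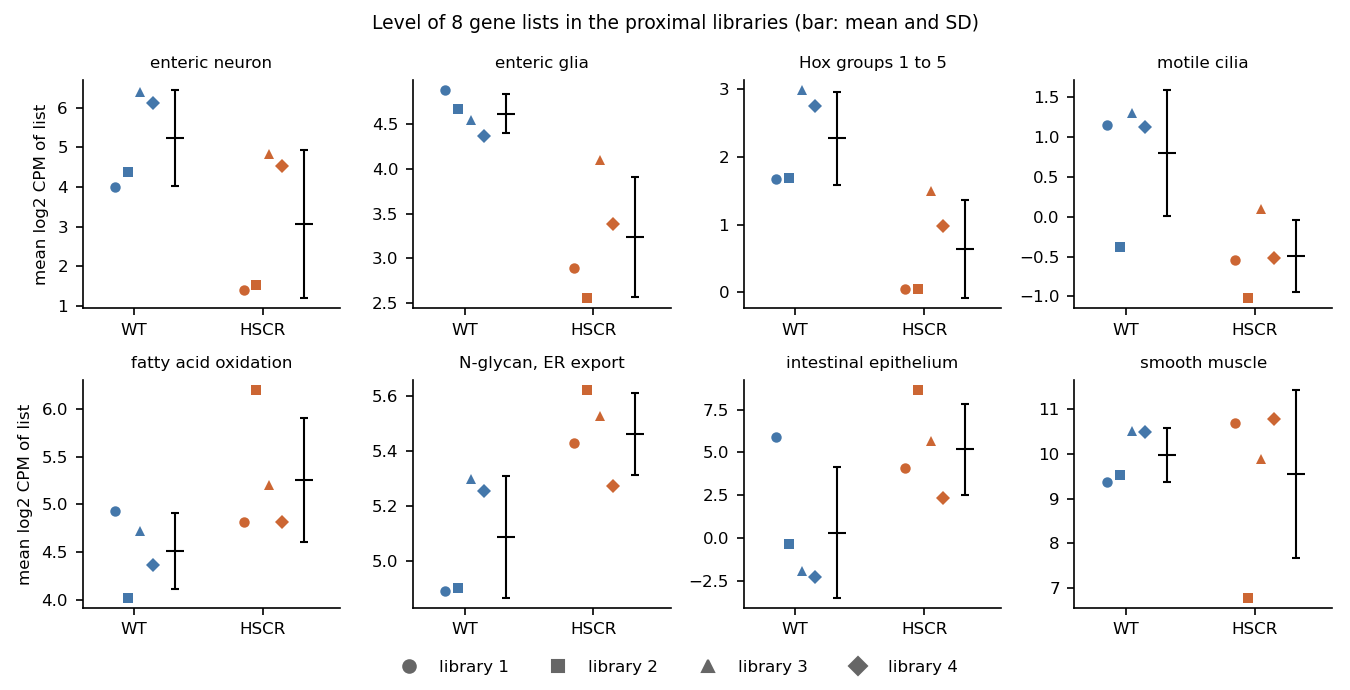
Mean log2 CPM over the members of 8 gene lists in each of the 8 proximal libraries, with the group mean and SD as a bar. The glia and Hox 1 to 5 lists do not overlap between groups, and the epithelial list reaches 8.63 in HSCR library 2 and 5.89 in WT library 1.

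Fat cell genes did not go one way. Of 17 tested adipocyte genes, 9 had a log2 fold change under 0, with a median of -0.37 that was -0.71 without HSCR library 2 and turned to 0.15 without WT library 3. Of these genes 3 were lower without overlap and 1 higher, against 3.02% and 1.84% of all tested genes. Plin1, the coat protein of lipid droplets, stood at 8.49, 4.34, 0.957 and 6.57 CPM in WT and at 0.0463, 0, 0 and 0.202 in HSCR, and Retn, resistin, at 5.08, 1.52, 0.751 and 2.27 against 0, 0.132, 0 and 0.135. Cfd, adipsin, had 143, 20.7, 7.36 and 24.1 CPM in WT and 0.509, 2.05, 0 and 2.36 in HSCR, and its log2 fold change was -5.32, or -3.83 without WT library 1. Dgat2, which makes triglycerides, was the higher one, at 16.6, 13.5, 21.4 and 11.4 CPM in WT and 23.1, 140, 30.9 and 26.8 in HSCR, a log2 fold change of 1.81, or 0.78 without HSCR library 2. In the distal colon Plin1, Retn and Cfd had the opposite sign, log2 fold changes of 2.02, 3.56 and 2.70, and the test of the difference between segments gave an edgeR adjusted p of 1.00 for each.

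Chaperone and cholesterol genes lay lower by small amounts. In a list of 32 cytosolic chaperones drawn up after the values had been seen, 26 had a log2 fold change under 0 and 6 did not overlap, Hsph1, Dnajb2, Dnaja1, Ppid, Dnaja4 and Bag5, with a median of -0.32 that shrank to -0.05 on CPM by total counts. Hsph1, a large heat shock protein, stood at 72.7, 86.2, 131 and 167 CPM in WT and 61.2, 56.3, 40.7 and 46.3 in HSCR, and Dnajb2, a chaperone of nerve cells, at 53.4, 53.4, 53.1 and 69.3 against 28.2, 25.7, 27.9 and 41.9 CPM. Among 19 cholesterol synthesis genes, 17 had a log2 fold change under 0 (median -0.42) and none avoided overlap. Their median was -0.81 without HSCR library 2 and -0.18 without WT library 3. The list's difference between group means was 0.89 in replicates 1 and 2 and -1.11 in replicates 3 and 4. Of 32 tested imprinted genes, again listed after the values had been seen, 19 had a log2 fold change under 0 and 4 did not overlap. Among all tested genes 46.8% were under 0 and 3.02% were lower without overlap. Peg3, a zinc finger gene expressed from the paternal allele, stood at 97.6, 124, 172 and 135 CPM in WT and at 54.1, 17.3, 53.0 and 45.0 in HSCR.

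The 15 higher genes with the smallest p had HSCR means 1.87 to 6.60 times the WT means. Their edgeR adjusted p ran from 0.525 to 0.651, 9 had a DESeq2 adjusted p under 0.05, and 11 stayed without overlap in each of the 5 scalings. DESeq2 and the scalings used the counts by which these genes were chosen. Gna14 (chr19:16413126-16588184), a G protein subunit that couples receptors to phospholipase C, stood at 15.6, 6.34, 15.3 and 14.6 CPM in WT and at 34.3, 38.7, 43.0 and 33.9 in HSCR. Its HSCR libraries were close together, 37.5 ± 4.27 CPM (SD, n = 4), a log2 fold change of 1.53 ± 0.32 (SE). Lpcat3 (chr6:124639990-124681381), which puts polyunsaturated fatty acids into phospholipids, stood at 18.4, 15.8, 24.5 and 16.9 CPM in WT and at 38.0, 45.2, 38.3 and 38.5 in HSCR, a log2 fold change of 1.08 ± 0.23 (SE). Rdh10, the enzyme that oxidises retinol on the way to retinoic acid, averaged 13.4 ± 1.81 CPM in WT and 26.8 ± 2.14 in HSCR (SD, n = 4). Smad6, an inhibitor of BMP signalling, stood at 9.46, 8.34, 10.5 and 9.55 CPM in WT and at 19.1, 35.0, 17.0 and 17.7 in HSCR. Lpcat3 overlaps Emg1, a gene with more reads, on the other strand. Slco2a1, the prostaglandin transporter, stood at 7.52, 4.58, 8.88 and 4.96 against 15.1, 44.9, 11.9 and 29.2 CPM, and Trpm4, a calcium-activated cation channel, at 11.2, 18.2, 16.3 and 9.47 against 29.5, 124, 66.6 and 24.2 CPM. HSCR library 2 was the highest for both, and the log2 fold changes were 1.96 and 2.15 with it and 1.53 and 1.54 without. Hif3a, a hypoxia-inducible factor, had a log2 fold change of 2.72, or 2.12 without that library. Fhl2, a LIM domain protein listed among YAP targets, stood at 33.9 to 52.8 CPM in WT and 69.4 to 81.8 in HSCR, and Eef2, the elongation factor of translation, at 1315 to 1878 and 2263 to 3170 CPM.

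**Figure D4:**
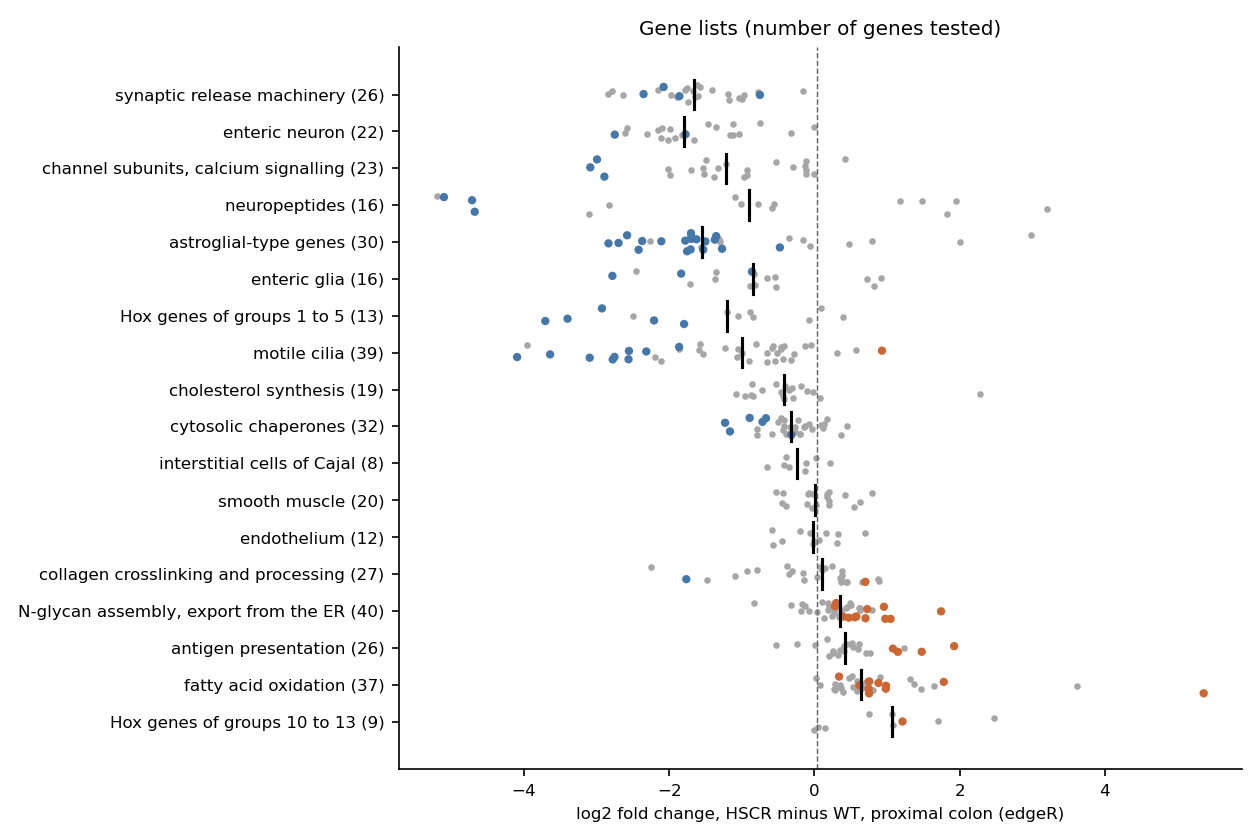
Log2 fold change, HSCR over WT, of each member of the gene lists, with colored points for genes whose groups do not overlap, a black bar at the list median and a dashed line at the median of all tested genes (0.04). The synaptic release list has its median at -1.65 and fatty acid oxidation at 0.64.

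Fatty acid oxidation and secretory genes were higher in small steps. All 37 tested genes of fatty acid oxidation, a list drawn up after the values had been seen, had a log2 fold change over 0, where 53.2% of all tested genes did, 10 did not overlap, and the median was 0.64. A list of fatty acid synthesis and oxidation set at the outset was mixed, with 11 of 21 genes over 0. Its median was 0.02, and 2 genes were higher without overlap. The mean log2 CPM of that list differed by 0.71 in replicates 1 and 2 and by -0.11 in replicates 3 and 4. Acadvl, the first dehydrogenase of long-chain oxidation, stood at 29.0, 17.3, 32.4 and 24.9 CPM in WT and 41.0, 44.0, 51.4 and 38.0 in HSCR. Hadha, which carries out later steps, stood at 119, 102, 164 and 130 against 195, 323, 183 and 167 CPM. Slc25a20, the carnitine carrier, rested on HSCR library 2, at 287 CPM against 51.5 to 60.0 in the other HSCR libraries and 22.8 to 48.1 in WT, and its log2 fold change was 1.78 with and 0.77 without it. The list median was 0.35 without HSCR library 2. In 40 genes of N-glycan assembly and export from the endoplasmic reticulum, also listed after the values had been seen, 34 had a log2 fold change over 0 and 12 did not overlap (median 0.35). Among all tested genes 1.84% were higher without overlap. P4hb, a disulfide isomerase, stood at 368, 241, 364 and 396 CPM in WT and at 542, 614, 652 and 420 in HSCR, and Txndc5, a related enzyme, at 99.4 to 135 against 165 to 217 CPM. B4galt1, the galactosyltransferase of glycan chains, stood at 32.5 to 45.3 and 52.9 to 87.2 CPM. Of 26 antigen presentation genes, listed in the same way, 24 had a log2 fold change over 0 and 4 did not overlap, H2-T23, Psmb9, H2-DMb1 and Tap1. H2-T23, a nonclassical MHC class I molecule, had 176 CPM in HSCR library 2 and 25.5 to 44.6 in the other HSCR libraries against 13.4 to 21.4 in WT. The list median was 0.42, or 0.15 without HSCR library 2 and 0.78 without WT library 1, and Tap1 and Psmb9 overlap on opposite strands.

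Epithelial genes lay higher beside these lists. All 24 epithelial genes had a log2 fold change over 0 and none avoided overlap, with a median of 3.12 that was 0.89 without HSCR library 2 and 6.92 without WT library 1. Muc2, the mucin of goblet cells, stood at 51.6, 4.55, 0.137 and 0 CPM in WT and at 59.7, 933, 595 and 17.7 in HSCR, and Epcam at 129, 13.3, 0.592 and 1.07 against 56.0, 1332, 205 and 7.86. The mean log2 CPM over the epithelial list was 5.89, -0.38, -1.93 and -2.32 in WT and 4.11, 8.63, 5.68 and 2.34 in HSCR libraries 1 to 4, and its part in the oxidation, glycan and antigen results was not tested. In replicates 1 and 2 the mean log2 CPM of the epithelial list differed by 3.62 between groups. Oxidation differed by 1.03 there, glycan assembly by 0.63 and antigen presentation by 1.06. In replicates 3 and 4 the differences were 6.13, 0.47, 0.12 and 0.13, in the same order. These differences of logs do not measure the amount of epithelial RNA, since the list was near its floor in WT libraries 3 and 4.

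Muscle, connective tissue and vessel lists lay near the median of all genes. Smooth muscle had a median of 0.01 over 20 genes, 10 of them above and 10 below 0, that ran from -0.22 to 0.40 with a library left out, and fibroblast 0.02 over 18, with no gene of either without overlap. Endothelium had -0.01, circadian clock -0.03 and gut muscle receptors -0.10. Some lists were higher by their median but held no gene without overlap. Skeletal muscle had 7 of 7 genes over 0 with a median of 2.92, which was 0.11 without HSCR library 1. Antimicrobial and acute phase genes had 12 of 16 over 0 with a median of 1.52, which was 0.46 without HSCR library 2. Without that library the red blood cell median went from 1.33 (5 of 5 over 0) to -0.38, and that of T and NK cells from 0.34 (4 of 5 over 0) to -0.18. The pancreatic acinar list had a median of 1.34 over 2 genes, or 0.63 without HSCR library 1. Others were glycolysis and hypoxia (0.41, 18 of 20 over 0), elastic fibres (0.38, 17 of 22 over 0) and interferon response (0.23, and 0.06 without HSCR library 2). In the TGF-beta and activin list Smad6 was higher and Tgfb2, a ligand, lower without overlap.

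The distal colon gave values that the choice of genes did not use, although libraries of both segments share replicate numbers and may share mice. Of 417 lower proximal genes tested there, 366 had a distal log2 fold change under 0 (87.8%), where 46.1% of all genes did, 61 had a distal unadjusted p under 0.05 (1.76% of all genes were lower so), and 24 did not overlap (5.76%, where 1.13% of all did). Of 257 higher genes, 218 were over 0 (84.8%, against 53.9%), 9 had a distal unadjusted p under 0.05 (0.879% of all were higher so) and 8 did not overlap (3.11%, against 0.715%). Without HSCR distal library 1, which had 97.0 CPM of Ednrb, the shares under and over 0 were 86.7% and 84.9%, and those without overlap 19% (3.40% of all) and 5.81% (2.00% of all). Unc13c, Foxj1, Apoe, Dnajb2 and Dnaja1 were among the lower genes separated in both segments, and H2-T23 among the higher. The log2 fold changes of the proximal and then the distal segment were -5.10 and -3.98 for Calcb, -3.12 and -2.83 for Myrip, -3.40 and -3.43 for Hoxa5 and -3.09 and -2.66 for Foxj1. Gna14, at 1.53 in the proximal colon, was at 0.25 in the distal, and Acadvl went from 0.75 to -0.14. No gene of 18619 had an edgeR adjusted p under 0.05 for the difference between segments, and 269 (1.44%) had an unadjusted p under 0.05.

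**Figure D5:**
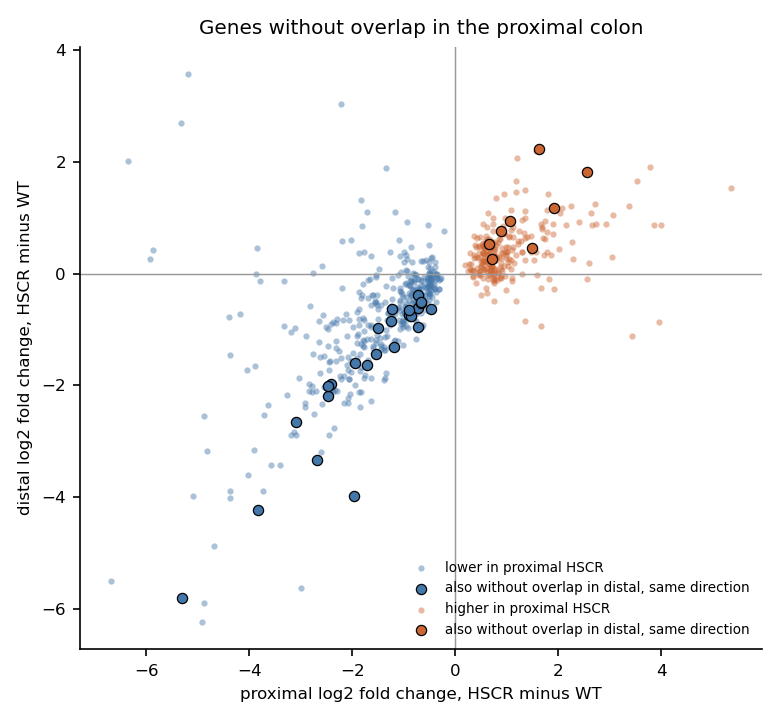
Log2 fold change in the distal colon (vertical axis) against the proximal colon (horizontal axis) of the 417 lower and 257 higher genes without overlap in the proximal colon, each point 1 gene, outlined where the distal groups do not overlap either. Of the lower genes 366 and of the higher genes 218 lie on the same side of 0 in both segments.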

How the data were processed

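Bulk poly-A RNA-seq of the proximal LMMP gave 8 libraries, 4 HSCR and 4 WT, grouped by the labels. The authors used HISAT2 2.2.1 with the mm39 genome for alignment and featureCounts 2.0.6 with a GENCODE model for gene counts, and the raw counts were deposited beside FPKM values; the strand setting is not given in the sources used here. Columns of the authors' own comparisons (group means, log2 fold changes and p-values) and a second table of the genes they selected in this comparison were not used.

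Counts were filtered with filterByExpr and scaled by TMM, and HSCR was tested against WT with the quasi-likelihood test of edgeR 4.0.16 in R 4.3.3, with Benjamini-Hochberg adjustment over 16664 genes. SE is the absolute log2 fold change over the root of the test statistic. The study's methods name edgeR with 4 RUVr factors and a likelihood ratio test, which was run as an alternative because 4 factors on 8 libraries leave few residual degrees of freedom. A gene was called without overlap where all 4 HSCR libraries lay on one side of all 4 WT libraries in CPM. FPKM values were used only as another scaling. A list's level is the mean log2 CPM of its members with a prior count of 0.5. Scripts were tested on simulated data. No library pair held identical values. Named genes that overlap another gene may share its reads, and not every such overlap is noted.

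The genes and lists were chosen with earlier results of these data known, 36 lists at the outset and 10 more after the values had been seen, and no list was tested. Named genes are Ednrb, the 15 non-overlapping protein-coding genes with the smallest p in each direction, the 5 with the highest mean CPM in each direction and up to 4 of each of the 36 lists, leaving out gene models and 10 genes that the study names beside this comparison. Some items are not reported here. Members of the added lists, Vip, Cartpt and those named in counts of 5 or fewer stand outside this rule. Promoter windows are the 250 bases before the GENCODE canonical start in GRCm39, found for 16631 of 16664 genes. DESeq2 1.42.0 and limma 3.58.1 served as alternatives. Depth sets the precision of low counts, and intervals cover no error beyond the spread between libraries.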

Additional observations from a re-analysis of the deposited data

Results flagged for a closer look

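In 37 of 246 groups of 4 libraries 1 library stood far from the other 3. The limit used sets about 1 in 20 groups apart where values are normal and independent. Levels of chosen genes and lists in the same libraries need not be either, so the count was not set against chance. HSCR library 2 was the one in several: it had 1332 CPM of Epcam (7.86 to 205 in the others), 287 of Slc25a20, 140 of Dgat2, 176 of H2-T23, 45.2 of Lpcat3, 35.0 of Smad6 and 0.562 of Rims2. Its mean log2 CPM was the lowest for interstitial cells of Cajal (3.75), mesothelium (-1.40), gut muscle receptors (1.61), collagen crosslinking (3.05), elastic fibres (4.21), matricellular matrix (2.48) and the circadian clock (4.05), and the highest for T and NK cells (1.39). HSCR library 1 had 1130 CPM of Acta1, 116 of Hoxd13, 42.3 of Tap1 and 1.32 of Hoxa3, and a mean log2 CPM of 1.45 for Hox groups 6 to 9. HSCR library 4 had 41.9 CPM of Dnajb2 and 20.1% mitochondrial reads, against 5.56 to 6.68% in the other HSCR libraries.

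Among WT libraries, library 1 had 129 CPM of Epcam, 51.6 of Muc2, 141 of Sox10 and 143 of Cfd, and a mean log2 CPM of 0.174 for mast cells, 1.82 for cytokines and 2.62 for Hox groups 6 to 9. WT library 2 had 1315 CPM of Eef2 and 6.34 of Gna14, and a mean log2 CPM of 4.32 for fatty acid synthesis and oxidation, 3.69 for the circadian clock, -0.38 for motile cilia and 3.87 for astroglial-type genes. WT library 3 had a mean log2 CPM of 2.12 for red blood cell genes, and WT library 4 had 69.3 CPM of Dnajb2.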

How the results depend on the processing

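The number of genes past both limits depended on the test. It was 165 lower and 74 higher with DESeq2, 65 and 4 with edgeR's likelihood ratio test, 341 and 103 with 1 RUVr factor and 1190 and 1478 with 4, 4 lower with limma-voom and 4 lower with the series of library names as a term, where Lrrtm1 passed (log2 fold change -3.67, edgeR adjusted p 0.0466), and 0 with each other normalization, filter or left-out library. At an unadjusted p under 0.05, higher genes numbered 1010 (DESeq2), 920 and 2881 (1 and 4 RUVr factors), 1372 (limma-voom), 1040 (no filter), 754 (all 16 libraries), 942 (total counts) and 247 to 887 with a library left out, and lower genes 1103, 1430 and 2300, 1575 and 317 (DESeq2, RUVr, limma-voom, total counts) and 433 to 815. At an unadjusted p under 0.01 they were 51 and 185. Higher genes without overlap numbered 513 on total counts, 188 on nuclear counts, 476 without the filter and 451 to 1001 with a library left out, lower ones 152 on total counts and 620 to 1155, since fewer libraries overlap less. Differences between segments at an unadjusted p under 0.05 numbered 233 to 665 with a library left out. CPM by nuclear counts and the fits on total or nuclear counts without TMM were added after seeing the data. Libraries with the same replicate number had correlations of deviations of -0.113, -0.00547, 0.245 and 0.300, and unlike numbers had -0.489 to 0.435. A pairing by replicate number was thus neither shown nor excluded. With the replicate block 841 genes were lower and 286 higher at an unadjusted p under 0.05 and 0 passed both limits (edgeR). Log2 fold changes that reversed were those of Hoxd13 (-2.86 with the replicate block, -0.77 with the library series, -3.41 to 1.51 with a library left out), Acta1 (-0.14 to 3.06 with a library left out) and Vip (-0.0071 with the library series), and the cause was not tested. Of 68 named genes without overlap 43 kept it in all 5 scalings, and the lowest counts have few reads in HSCR.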

Other observations

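Genes of the extracellular matrix and its sensing depended on HSCR library 2, whose smooth muscle list was low. With all 8 libraries the 22 elastic fibre and small proteoglycan genes had a median log2 fold change of 0.38 and none without overlap. Without HSCR library 2 the median was 0.79 and 8 of the 22 lay above every WT library, where 4.92% of all tested genes did. Among 27 genes of collagen crosslinking and processing 7 did so, with a median of 0.43, against 1 and a median of 0.11 with all 8 libraries and a median of -0.11 without HSCR library 1. Among 20 mechanosensing genes and YAP targets 5 did, with a median of 0.48, against 1 and 0.12 with all 8 libraries and a median of -0.06 without HSCR library 4. These values came from leaving out 1 library after its level was known, and the part of that library's tissue content was not tested.
Transmitter synthesis and transport genes lay lower, 9 of 12 under 0 with a median of -1.58 and none without overlap. The median was -0.80 without WT library 4 and -2.36 without HSCR library 3. Among 15 glucocorticoid response genes 10 were over 0, with a median of 1.15 that was 0.25 without HSCR library 2.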
